A study of Mus musculus with 27 samples.

Results

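The genes described here encode the pore-forming and beta subunits of voltage-gated sodium, calcium, HCN and potassium channels. They were taken by symbol: Scn with a number and the letter a or b, Hcn with a number, Cacna1 with a letter, Cacnb with a number, and Kcna, Kcnb, Kcnc, Kcnd, Kcnh or Kcnq with a number, without antisense or opposite-strand genes. This gave 61 of the 42375 named rows in each of the 4 bulk count tables and 62 of the 32285 genes in each of the 4 single-cell matrices. The additional gene in the matrices is Scn2a, which the bulk tables spell Scn2a1 and which was not taken from them. In the bulk tables the 61 genes comprised 9 sodium channel alpha and 4 sodium channel beta subunits, 10 calcium channel alpha1 and 4 calcium channel beta subunits, 4 HCN subunits and 30 potassium channel alpha subunits.

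RNA was measured in aortic tissue and cells of C57BL/6 mice that had received angiotensin II (Ang II) for 28 days, in a study whose title concerns KLF10 and IL-9 in CD4+ T cells and perivascular fibrosis. Bulk RNA sequencing covered non-stripped aorta of TKO mice given an anti-IL-9 antibody (2 libraries) or IgG (3) with the Ang II, non-stripped aorta of TKO (3) and Cre (3) mice, stripped aorta of TKO (2) and Cre (4) mice, and fibroblasts isolated from the aorta of TKO (3) and Cre (3) mice. Single-cell RNA sequencing covered digested non-stripped aorta of TKO (2 libraries) and Cre (2) mice. The labels name the genotypes only as TKO and Cre and give neither the allele, the Cre driver, the age nor the sex. Nothing in them says that libraries of a group came from separate animals, so the p-values measure the spread between these libraries, which may be technical. Stripped aorta was taken as such from the source and characteristics fields, although its sample titles read nonstripped.

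Voltage-gated channels open or close with the membrane potential. In neurons, sodium channels carry the upstroke of the action potential, potassium channels repolarise the membrane and set its resting excitability, HCN channels carry an inward current at negative potentials, and calcium channels couple depolarisation to transmitter release. In the vessel wall, the L-type calcium channel Cacna1c brings in the calcium that drives contraction of smooth muscle, and Kv channels such as Kcna5 oppose that depolarisation. The perivascular tissue also holds sympathetic nerve fibres with their Schwann cells.

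Bulk libraries held 17179257 to 38633457 counts in named genes, and the single-cell libraries 25922726 to 60910282 UMIs before cells were filtered. Klf10, the gene named in the title, had 41.2, 35.4 and 0 CPM (counts scaled to a common library size with TMM factors) in the non-stripped libraries labelled TKO and 40.6, 50.1 and 65.7 CPM in those labelled Cre, so that 1 library labelled TKO listed no Klf10 count, 1 lay just above the lowest Cre library and 1 just below it. It had 37.2 and 20.6 CPM in stripped TKO aorta, against 29.7 to 62.8 CPM in stripped Cre aorta, and 58.2 to 71.2 CPM in TKO fibroblasts, against 60.9 to 73.2 CPM in Cre fibroblasts. In the antibody experiment, where all mice were TKO, it had 23.4 and 20.8 CPM with anti-IL-9 and 39.7, 47.3 and 28.4 CPM with IgG. In single T cell-like cells it had 24 and 8 UMIs in TKO and 38 and 21 UMIs in Cre libraries. The fibroblast markers were present in the isolated fibroblasts, where 10 of them summed to 5169 to 7542 CPM in TKO and 3214 to 5206 CPM in Cre libraries. In stripped aorta the same 10 markers summed to 28452 to 47057 CPM in TKO and 28543 to 45336 CPM in Cre libraries.

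Given an anti-IL-9 antibody, TKO aorta held more RNA of most channel subunits than TKO aorta given IgG. Of the 55 subunits with enough counts to test, 42 were higher and 2 lower at an adjusted p under 0.05 (edgeR quasi-likelihood test with Benjamini-Hochberg adjustment over all 16463 genes tested). Over all genes tested, 21.0% were called higher and 11.0% lower in this comparison. At an unadjusted p under 0.05 there were 48 subunits, against 43.8% of all genes. Of the 42 subunits, 39 were more than 2-fold higher. The median log2 fold change of the 55 was 1.73, whereas that of all genes was -0.01. Summed over the 61 subunits, the level was 1326 and 1236 CPM in the anti-IL-9 libraries, against 467, 390 and 401.97 CPM in the IgG libraries. DESeq2 also called 42 higher and 2 lower, with 33.6% of all 16628 genes called. Groups did not overlap for 48 subunits higher and 2 lower, with 32.1% of all genes tested not overlapping higher and 27.7% lower. The 6 subunits not tested were Cacna1f, Cacna1s, Kcna10, Kcna3, Kcna7 and Kcnh5, each with at most 46 counts over the 5 libraries.

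**Figure D1:**
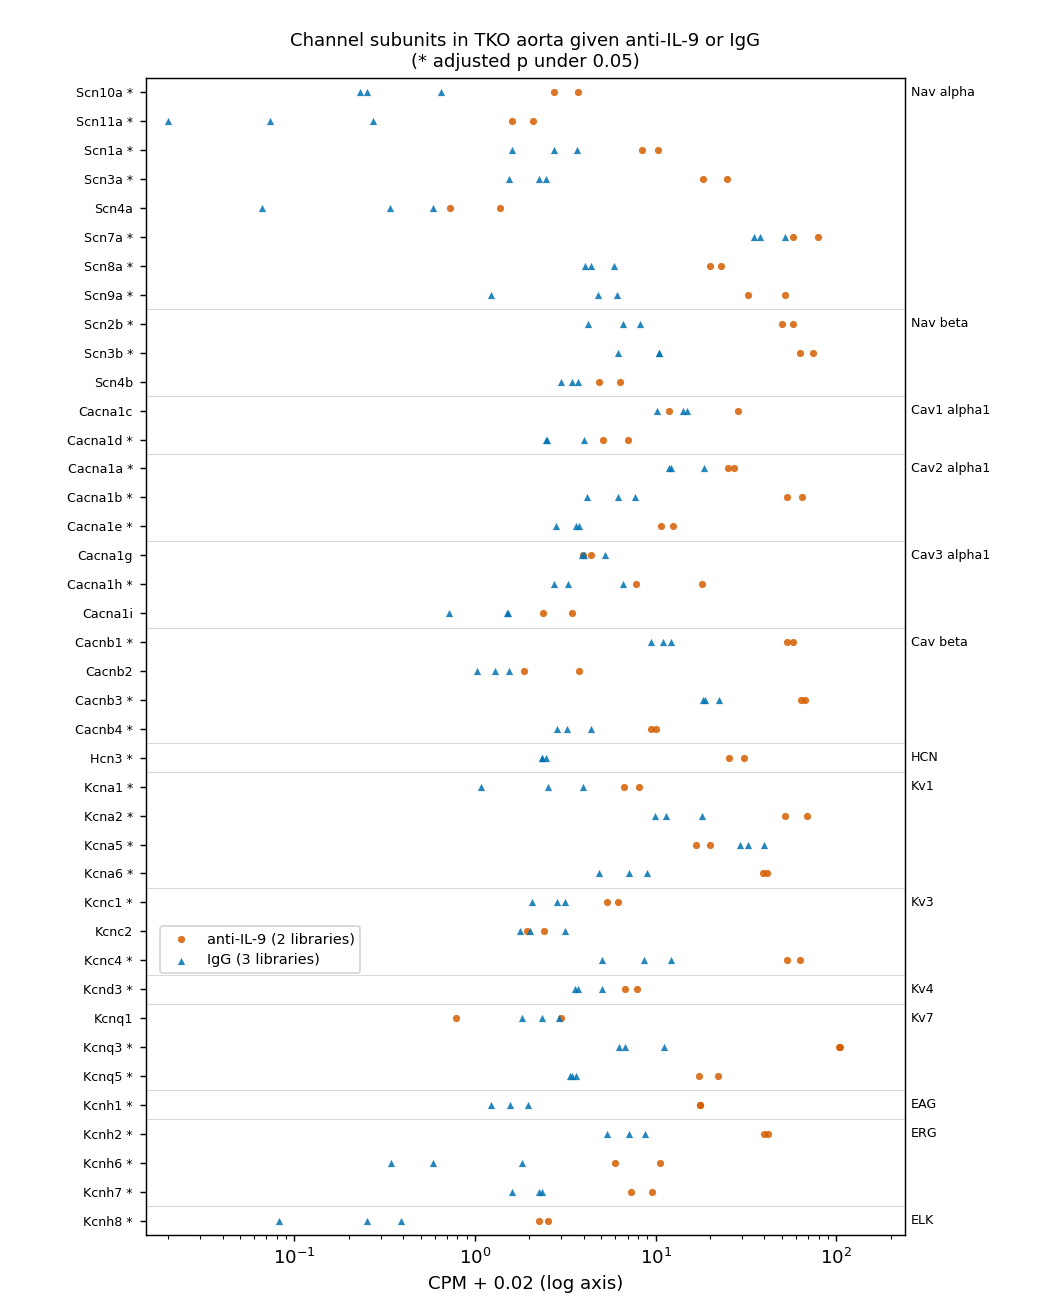
CPM of 40 of the 55 tested channel subunits, those named in the text, in the 2 anti-IL-9 libraries (circles) and the 3 IgG libraries (triangles) of TKO aorta, by family, with 0.02 added so that zeros show on the log axis. Asterisks mark an adjusted p under 0.05 (edgeR), which 32 of the 40 reached. The circles of Kcna5 lie left of its triangles, while those of the other marked subunits lie to the right.

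Most sodium channel alpha subunits tested were higher after anti-IL-9. Scn3a, an alpha subunit known from developing neurons, had 24.9 and 18.2 CPM in anti-IL-9 libraries, against 2.44, 1.53 and 2.26 CPM in IgG libraries (log2 fold change 3.38, SE 0.25, edgeR adjusted p 0.000181). Scn9a, the sodium channel of sympathetic and sensory neurons, had 51.8 and 32.3 CPM with anti-IL-9 and 6.10, 1.21 and 4.76 CPM with IgG (3.41, SE 0.53, edgeR adjusted p 0.0032). The lowest anti-IL-9 library thus stood far above the highest IgG library for both genes. Scn8a, which is concentrated at nodes of Ranvier and axon initial segments, had 22.9 and 20.1 CPM against 4.35, 4.03 and 5.89 CPM with IgG. Scn7a, a sodium-sensing relative of these channels found in glia, had 79.0 and 57.9 CPM with anti-IL-9 and 51.8, 38.0 and 35.0 CPM with IgG, a difference of 0.72 on the log2 scale (edgeR adjusted p 0.0362), the smallest among the subunits called higher. That call was lost without IgG library 2 or 3 or anti-IL-9 library 1 (0.46 to 0.92 over the alternatives, largest edgeR adjusted p 0.212). Scn10a and Scn11a, best known from nociceptive sensory neurons, were scarce in both groups: Scn11a had 52 and 29 counts with anti-IL-9 and 1, 0 and 4 counts with IgG. Scn1a was also higher, by 1.84 on the log2 scale. Scn4a, the skeletal muscle alpha subunit, had 34 and 13 counts with anti-IL-9 and 6, 1 and 9 with IgG, and did not pass (edgeR adjusted p 0.102).

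Sodium channel beta subunits are adhesion-type partners of the alpha subunits. Scn3b had 74.0 and 63.2 CPM in anti-IL-9 aorta, against 10.4, 6.21 and 10.5 CPM in IgG aorta (2.93, SE 0.23, edgeR adjusted p 0.000196). Scn2b had 50.1 and 58.0 CPM with anti-IL-9 and 8.22, 4.22 and 6.58 CPM with IgG. For Scn4b the anti-IL-9 libraries had 6.33 and 4.87 CPM and the IgG libraries 2.97, 3.43 and 3.70 CPM, and it did not pass (edgeR adjusted p 0.0576).

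All 3 calcium channel alpha1 subunits of the Cav2 family, the presynaptic channels that trigger transmitter release, were higher with anti-IL-9. Cacna1b, the N-type channel on which noradrenaline release from sympathetic endings chiefly depends, had 64.5 and 53.4 CPM, against 7.64, 4.17 and 6.14 CPM with IgG (3.30, SE 0.24, edgeR adjusted p 0.000177). Cacna1a, the P/Q-type channel, had 27.2 and 25.3 CPM against 12.2, 18.5 and 11.8 CPM with IgG, and Cacna1e, the R-type channel, 12.5 and 10.7 CPM against 3.61, 2.78 and 3.76 CPM with IgG. The Cacna1a call was lost without IgG library 1 or 3 or either anti-IL-9 library (largest edgeR adjusted p 0.0906). Among L-type channels, Cacna1d was higher by 1.02 on the log2 scale, with 7.05 and 5.08 CPM in anti-IL-9 aorta against 2.49, 3.99 and 2.44 CPM in IgG aorta. That call was lost in 5 of 9 alternatives, namely scaling by library size alone and leaving out IgG library 1 or 3 or either anti-IL-9 library (largest edgeR adjusted p 0.219). Cacna1c, the L-type channel of vascular smooth muscle, overlapped between groups with 28.8 and 11.9 CPM against 14.2, 14.8 and 10.2 CPM with IgG (0.64, edgeR adjusted p 0.209). Among T-type channels, Cacna1h was higher by 1.64 on the log2 scale, with 18.1 and 7.82 CPM in anti-IL-9 aorta against 6.58, 2.74 and 3.26 CPM in IgG aorta. Its value lay between 0.88 and 2.11 over the alternatives, and the call was lost without IgG library 2 or 3 or anti-IL-9 library 1 (largest edgeR adjusted p 0.259). Cacna1g and Cacna1i did not pass.

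Calcium channel beta subunits sit inside the cell, bind the alpha1 subunit and bring it to the membrane. Cacnb1 had 57.7 and 53.1 CPM in anti-IL-9 aorta and 12.2, 9.37 and 10.9 CPM in IgG aorta (2.36, SE 0.14, edgeR adjusted p 0.000172). Cacnb3 had 67.3 and 64.0 CPM with anti-IL-9, against 18.7, 22.4 and 18.2 CPM with IgG (1.73, SE 0.13, edgeR adjusted p 0.000181). Neither gene's groups overlapped. Cacnb4 was higher by 1.49 on the log2 scale, and Cacnb2 did not pass (edgeR adjusted p 0.0663). The HCN subunit Hcn3 had 30.7 and 25.6 CPM with anti-IL-9 and 2.33, 2.32 and 2.45 CPM with IgG, the smallest p of all subunits (3.57, SE 0.16, edgeR adjusted p 0.000172). Of the exon bases of Hcn3, 17.1% overlap Pklr on the opposite strand. Whether the authors' counting used strand is not stated in the labels, so reads of these genes cannot be told apart there.

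Of the 30 potassium channel alpha subunits, the Kv7 gene Kcnq3 takes part in the M current, which muscarinic receptors close in sympathetic neurons. Kcnq3 had 105.2 and 103.9 CPM in anti-IL-9 libraries, against 11.1, 6.26 and 6.77 CPM in IgG libraries (3.70, SE 0.24, edgeR adjusted p 0.000174). Kcnq5, which can join Kcnq3 in such channels, had 22.1 and 17.4 CPM with anti-IL-9, against 3.61, 3.43 and 3.32 CPM with IgG (2.51, SE 0.18, edgeR adjusted p 0.000177). Both anti-IL-9 libraries stood well above all IgG libraries for both genes. The epithelial and cardiac member Kcnq1 had 2.96 and 0.765 CPM against 1.80, 2.32 and 2.88 CPM with IgG and did not pass.

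The EAG channel Kcnh1 had 17.5 CPM in both anti-IL-9 libraries and 1.54, 1.21 and 1.94 CPM in the IgG libraries (3.50, SE 0.23, edgeR adjusted p 0.000174). All 3 ERG channels were higher: Kcnh2 had 39.6 and 41.9 CPM with anti-IL-9 and 8.75, 5.38 and 7.15 CPM with IgG, and Kcnh6 and Kcnh7 were higher by 3.21 and 2.04 on the log2 scale. Kcnh6 lost its call without anti-IL-9 library 1 (edgeR adjusted p 0.0564). Of 3 ELK channels only Kcnh8 passed, at low counts.

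In the Kv1 to Kv4 families, which hold the delayed rectifiers and the A-type channels, 11 of 14 tested genes were higher and 1 was lower. The fast Kv3 channel Kcnc4 had 53.7 and 63.3 CPM with anti-IL-9, against 12.1, 5.01 and 8.65 CPM with IgG (2.77, SE 0.32, edgeR adjusted p 0.000802). The axonal channel Kcna2 had 51.8 and 68.6 CPM with anti-IL-9 and 18.0, 9.92 and 11.4 CPM with IgG. Kcna6 followed with 39.3 and 41.5 CPM against 8.91, 4.87 and 7.15 CPM with IgG, although 39.6% of its exon bases overlap an opposite-strand gene. All 3 Kv4 genes, which carry A-type currents, were higher, by 0.84 to 1.75 on the log2 scale, but without anti-IL-9 library 1 neither Kcnd2 nor Kcnd3 passed, and Kcnd3 was also lost without anti-IL-9 library 2 or IgG library 1 or 2 (largest edgeR adjusted p 0.0641 for Kcnd2 and 0.159 for Kcnd3). Kcna1 was lost without either anti-IL-9 library or IgG library 3, and Kcnc1 without anti-IL-9 library 1 or IgG library 3 (largest edgeR adjusted p 0.164 for Kcna1 and 0.0979 for Kcnc1). Kcna5, a Kv channel known from arterial smooth muscle, was the exception, with 16.8 and 19.95 CPM in anti-IL-9 aorta against 39.9, 32.6 and 29.5 CPM in IgG aorta (-0.89, SE 0.17, edgeR adjusted p 0.00781). In the single cells described below, Kcna5 was highest in pericyte-like and then in endothelial-like cells.

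The genes that serve these channels were taken from lists of auxiliary subunits, axonal clustering partners and other potassium channels. Of 30 auxiliary and modifier subunits tested, 17 were higher and 1 lower after anti-IL-9 (median log2 fold change 1.48), among them Kcnab2, a beta subunit of Kv1 channels, Dpp6, a partner of Kv4 channels, and Cacng7. Of 18 axon clustering partners, 15 were higher and 1 lower (median 1.94), led by the adhesion protein Nrcam and the ankyrins Ank2 and Ank3. Of 28 other potassium channels, 14 were higher and 3 lower (median 1.09). Kcnt1, a sodium-activated channel, was higher by 3.16 on the log2 scale, whereas Kcnj8, a KATP channel pore of pericytes and smooth muscle, was lower by 1.01.

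Markers of other cell types moved with the subunits in this comparison. Of 31 sympathetic neuron genes, 31 were higher after anti-IL-9, their sum lay at 12230 and 12836 CPM in anti-IL-9 libraries and at 748 to 1626 CPM in IgG libraries, and none was at 0 in every library. Of 14 Schwann cell genes, 12 were higher, with sums of 817 to 825 CPM against 347 to 367 CPM with IgG. Skeletal muscle genes were higher for 16 of 20 tested (339 to 410 CPM against 62.6 to 120 CPM with IgG) and smooth muscle genes for 9 of 12 (1723 to 1735 CPM against 654 to 1015 CPM). Mesothelial genes were lower for 7 of 7 tested (6.89 to 8.61 CPM against 138 to 317 CPM with IgG), fibroblast genes for 10 of 10 (1481 to 2119 CPM against 4262 to 11704 CPM), endothelial genes for 8 of 10 and macrophage genes for 6 of 7. Pericyte genes were lower for 4 of 8 (547 to 556 CPM against 615 to 777 CPM with IgG). The part of these marker lists in the subunit result was not tested. In bulk RNA, more cells or nerve fibres of a type and more RNA per cell cannot be told apart.

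**Figure D2:**
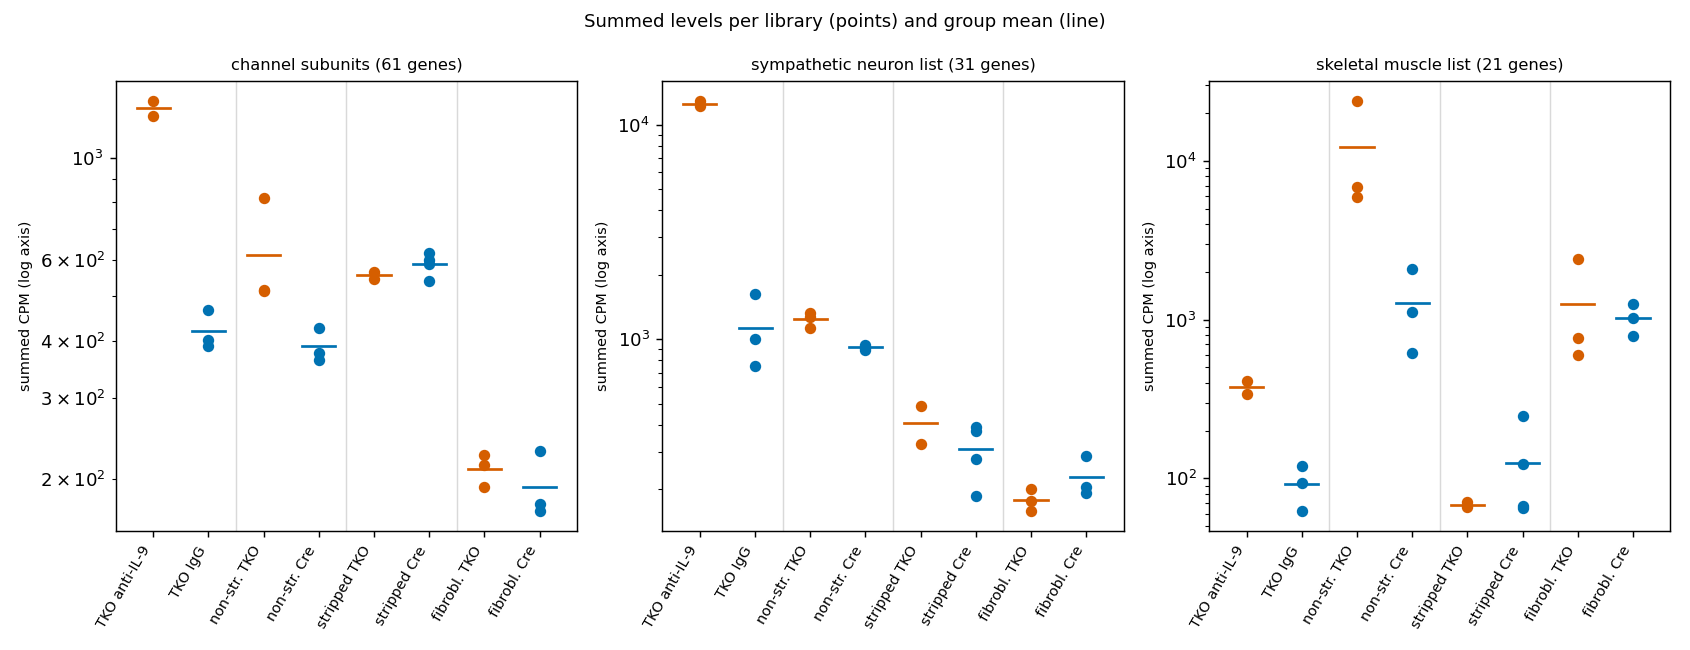
Summed CPM per library (points, log axis) and group mean (line) of the 61 channel subunits, 31 sympathetic neuron genes and 21 skeletal muscle genes in the 8 bulk groups. The 2 anti-IL-9 libraries lie above the 3 IgG libraries in all 3 panels, and so do the 3 non-stripped TKO libraries above the 3 non-stripped Cre libraries.

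Promoters are shown for 3 subunits that stand for the patterns above and below: Cacna1b, higher after anti-IL-9; Kcna5, lower after anti-IL-9; and Kcnc1, higher after anti-IL-9 and the subunit with the smallest p between TKO and Cre in non-stripped aorta. Each runs 5′ to 3′ along the gene's strand over 300 bases, from 250 before to 50 after the RefSeq start (GRCm38.p6). Capitals mark the GC box GGGCGG, the E-box CAGCTG and the TATA element TATAAA on either strand. Cacna1b lies at chr2:24763103-24763402 on the minus strand, Kcnc1 at chr7:46396218-46396517 on the plus strand and Kcna5 at chr6:126535506-126535805 on the minus strand.
Cacna1b: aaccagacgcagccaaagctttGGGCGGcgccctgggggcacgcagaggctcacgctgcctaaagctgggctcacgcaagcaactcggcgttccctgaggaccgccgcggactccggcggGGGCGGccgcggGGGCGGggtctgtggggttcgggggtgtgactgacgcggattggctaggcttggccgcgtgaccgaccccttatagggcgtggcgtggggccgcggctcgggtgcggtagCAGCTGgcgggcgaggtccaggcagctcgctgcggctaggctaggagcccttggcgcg
Kcnc1: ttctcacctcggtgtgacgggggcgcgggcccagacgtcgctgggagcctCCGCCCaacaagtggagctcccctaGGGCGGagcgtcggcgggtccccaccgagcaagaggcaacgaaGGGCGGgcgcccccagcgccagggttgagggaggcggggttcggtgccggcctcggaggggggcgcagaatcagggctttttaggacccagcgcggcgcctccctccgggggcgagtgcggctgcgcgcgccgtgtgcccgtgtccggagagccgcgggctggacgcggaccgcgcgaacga
Kcna5: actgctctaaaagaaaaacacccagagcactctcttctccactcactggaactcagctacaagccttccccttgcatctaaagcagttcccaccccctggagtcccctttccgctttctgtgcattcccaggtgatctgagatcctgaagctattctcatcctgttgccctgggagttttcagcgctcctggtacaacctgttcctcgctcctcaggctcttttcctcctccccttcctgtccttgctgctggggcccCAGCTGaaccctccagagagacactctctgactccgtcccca
The Cacna1b and Kcnc1 windows each held 3 GC boxes, and the Kcna5 window none. Of the 62 subunits, 43 had a promoter in the RefSeq table (57 promoters), and of the 42 called higher after anti-IL-9, 28 had one (35 promoters). The GC box, searched on both strands and counted whether or not it touches another motif, was in 54.3% of the promoters of subunits higher after anti-IL-9, in 47.4% of all the subunits' promoters and in 35.7% of all 32851 promoters. CAGCTG was in 7 of those 35 promoters, in 28.1% of all the subunits' promoters and in 16.3% of all promoters. TATAAA was in 2.86% of the promoters of subunits higher after anti-IL-9, in 3.51% of all the subunits' promoters and in 13.6% of all promoters. The cAMP response element TGACGTCA was in none of the 57 and in 1.79% of all promoters. The letters TTCAGCACC, part of the element bound by the neuronal repressor REST, were in 1 of the 57 promoters (Kcnh6) and in 0.371% of all promoters.

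In non-stripped aorta of TKO and Cre mice without antibody, none of the 49 subunits tested passed an adjusted p of 0.05 (edgeR), with 0.119% of all 15162 genes called, 0.0594% higher and 0.0594% lower. At an unadjusted p under 0.05 there were 24, against 17.9% of all genes, and DESeq2 called 13 higher and 0 lower, with 4.77% of all genes called. The median log2 fold change was 0.37, with 38 of 49 positive, and -0.02 over all genes. Groups did not overlap for 26 subunits higher and 5 lower, while 14.9% of all genes tested did not overlap higher and 10.6% lower. Their sum averaged 616 ± 175 CPM in TKO aorta (SD, n = 3) and 389 ± 34.2 CPM in Cre aorta (SD, n = 3). Kcna10 and Kcna3 were listed at 0 in all 6 libraries.

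Kcnc1, Kcnq3, Kcna7 and Kcnq5 were among the 5 subunits with the smallest p, none past the threshold. Kcnc1, a fast Kv3 channel, had 3.42, 5.29 and 7.67 CPM in TKO aorta, against 0.814, 1.12 and 1.41 CPM in Cre aorta (2.29, SE 0.35, edgeR adjusted p 0.0591). Kcnq3 had 11.2, 9.87 and 13.3 CPM in TKO, against 5.12, 6.54 and 6.11 CPM in Cre aorta (0.95, SE 0.16, edgeR adjusted p 0.0657). The TKO libraries lay above all Cre libraries for both genes. Kcna7, a Kv1 channel of skeletal muscle, had 4.42, 2.14 and 9.70 CPM in TKO and 0.349, 1.01 and 0.517 CPM in Cre aorta (3.14, SE 0.62, edgeR adjusted p 0.0745). Library 3 was the highest TKO library for Kcnc1, Kcnq3, Kcna7 and Kcnq5. Kcnq5 had 5.53, 4.73 and 8.48 CPM in TKO and 2.95, 2.92 and 2.49 CPM in Cre aorta (1.16, SE 0.24, edgeR adjusted p 0.0803). Per length, Cacna1s and Scn7a averaged 6.41 and 4.32 CPM per kilobase of exon over both groups. By library, Cacna1s ranged from 0.349 to 23.3 and Scn7a from 3.26 to 4.84 CPM per kilobase.

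**Figure D3:**
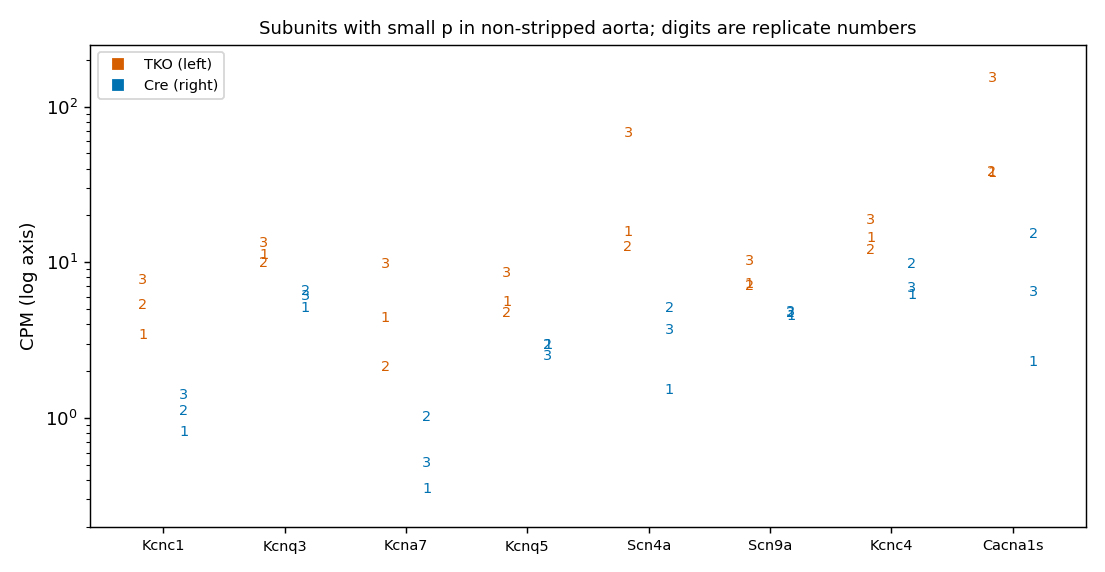
CPM (log axis) of 8 of the 10 channel subunits with the smallest p between TKO (left, orange) and Cre (right, blue) non-stripped aorta, with each library drawn as its replicate number. TKO libraries lie above Cre libraries for all 8. TKO library 3 is the highest for Kcna7, Scn4a and Cacna1s, which have the widest spread, and also for Kcnc1, Kcnq3 and Kcnq5.

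Skeletal muscle genes moved with several of these subunits. Their 21 genes summed to 6899, 5923 and 23737 CPM in TKO aorta and to 616, 2095 and 1117 CPM in Cre aorta, with all 21 positive, none called and none at 0 in every library. Scn4a, the skeletal muscle sodium channel, followed the same order with 15.7, 12.6 and 67.5 CPM in TKO and 1.51, 5.11 and 3.66 CPM in Cre aorta. Cacna1s, the L-type channel that serves as voltage sensor in skeletal muscle, had 37.2, 38.0 and 153 CPM in TKO and 2.29, 15.2 and 6.43 CPM in Cre aorta. Both are named outside the 5 with the smallest p, after their values were seen. The sympathetic neuron genes summed to 1275, 1124 and 1321 CPM in TKO and to 946, 913 and 896 CPM in Cre aorta, with 30 of 31 positive and none called. The part of either list in these differences was not tested. Of the lists of channel partners, none of 24 auxiliary subunits, 23 other potassium channels and 18 axon clustering partners passed here, nor did any in stripped aorta or fibroblasts. Without TKO library 3, which is the one with no Klf10 count and the most skeletal muscle RNA, 4 subunits passed as higher (edgeR), Kcna7, Kcnc1 and Scn4a among them, with 1.45% of all genes called. Without TKO library 2 there were 8, with 3.14% of all genes called.

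In stripped aorta, none of 48 subunits tested passed (edgeR), with 0.024% of all 16688 genes called, 0.012% higher and 0.012% lower. The median log2 fold change was 0.20, and -0.13 without TKO library 2. At an unadjusted p under 0.05 there were 7, against 13.8% of all genes, and DESeq2 called 1 higher (Kcna5, adjusted p 0.00917) and 1 lower (Cacna1g, adjusted p 0.0313), with 3.19% of all genes called. Groups did not overlap for 2 subunits higher and 5 lower, against 12.0% and 11.6% of all genes. Among the 5 with the smallest p were Kcna5, Cacna1g, Cacna1c and Kcnc2. Kcna5 had 9.86 and 31.3 CPM in TKO and 4.46, 8.05, 6.27 and 8.58 CPM in Cre aorta (1.59, SE 0.43, edgeR adjusted p 0.221). Its higher TKO library lay far above every other, while the lower TKO library stood just above the highest Cre library. The T-type channel Cacna1g had 22.5 and 14.1 CPM in TKO and 28.6, 33.3, 26.7 and 41.9 CPM in Cre aorta (-0.84, SE 0.25, edgeR adjusted p 0.245). Cacna1c had 33.9 and 38.2 CPM in TKO and 46.2, 49.0, 54.1 and 41.8 CPM in Cre aorta (-0.41, edgeR adjusted p 0.251), so that both TKO libraries lay below every Cre library for each of these calcium channels. Kcnc2, a Kv3 channel, had 1.45 and 2.04 CPM in TKO and 0.620, 1.26, 0.595 and 0.998 CPM in Cre aorta (1.00, edgeR adjusted p 0.347). Of the smooth muscle markers none of 12 was positive, with sums of 4531 to 6941 CPM in TKO and 7507 to 8819 CPM in Cre aorta, none called and none at 0 throughout. Adipocyte markers were positive for 14 of 14, with sums of 8675 to 9111 CPM in TKO and 2461 to 5089 CPM in Cre aorta. Sympathetic neuron genes were positive for 28 of 30 tested (324 to 490 CPM in TKO, 187 to 392 CPM in Cre aorta). Schwann cell genes were positive for 13 of 14 (869 to 1206 CPM in TKO, 693 to 848 CPM in Cre aorta). No gene of these lists was called, and their part in these values was not tested.

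The change in genotype effect between non-stripped and stripped aorta was tested as an interaction. None of 56 subunits passed (edgeR, 0.00571% of all 17501 genes called), and 10 had an unadjusted p under 0.05, against 18.2% of all genes. The TKO effect on Kcnc1 was larger in non-stripped than in stripped aorta by 2.68 on the log2 scale (SE 0.86, edgeR adjusted p 0.147). In stripped aorta, however, Kcnc1 had only 1 and 5 counts in TKO and 3, 3, 2 and 10 counts in Cre libraries. It was too scarce to test there, so this difference rests on few counts. In level per length, Scn7a and Cacnb3 stood high in stripped aorta, at 27.3 and 12.9 CPM per kilobase of exon.

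In isolated fibroblasts, 36 subunits were tested and none passed (edgeR), with 0.0638% of all 15673 genes called, 0.0319% higher and 0.0319% lower. At an unadjusted p under 0.05 there were 7, against 12.1% of all genes, and DESeq2 called 1 higher (Cacnb2) and 2 lower (Kcnh1 and Kcna3), with 2.73% of all genes called. Groups did not overlap for 3 subunits higher and 3 lower, against 8.86% and 8.45% of all genes. Cacnb2 had 2.91, 3.05 and 2.69 CPM in TKO fibroblasts, against 1.49, 1.09 and 1.46 CPM in Cre fibroblasts (1.09, SE 0.21, edgeR adjusted p 0.184). Kcnh1 had 5.50, 4.07 and 4.35 CPM in TKO and 6.72, 10.2 and 9.71 CPM in Cre fibroblasts (-0.93, SE 0.20, edgeR adjusted p 0.217). Kcna3, the Kv channel best known from T cells, had 0.826, 0.339 and 0.906 CPM in TKO and 1.36, 3.30 and 1.87 CPM in Cre fibroblasts (-1.64, edgeR adjusted p 0.258). For each of these 3 genes every TKO library lay on one side of every Cre library. Cacna1c had 47.5, 55.1 and 47.1 CPM in TKO and 38.8, 28.1 and 42.8 CPM in Cre fibroblasts (0.45, edgeR adjusted p 0.307). Kcnh2 had 5.24, 4.44 and 5.49 CPM in TKO and 5.76, 7.63 and 8.15 CPM in Cre fibroblasts (-0.50, edgeR adjusted p 0.322). Smooth muscle markers summed to 2124 to 2635 CPM in TKO and 1319 to 2324 CPM in Cre fibroblasts, and macrophage markers to 134 to 182 CPM in TKO and 220 to 502 CPM in Cre fibroblasts; their part was not tested. Per length, Cacnb3 averaged 8.79 CPM per kilobase of exon.

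**Figure D4:**
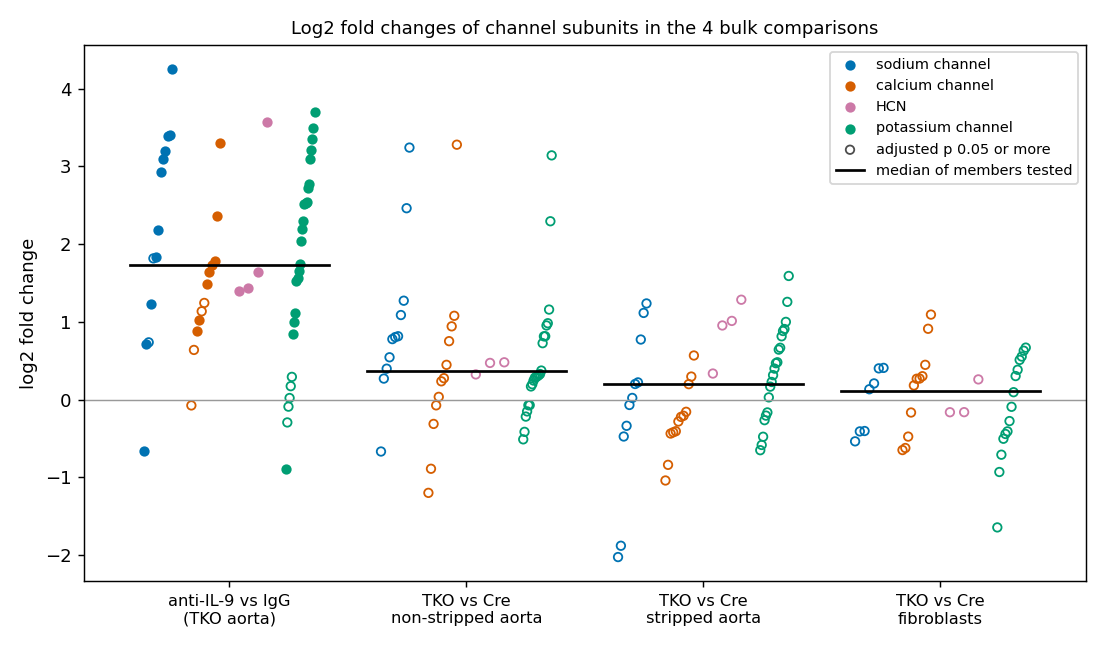
Log2 fold change of each tested channel subunit (points, by channel type) in the 4 bulk comparisons, with filled points for an adjusted p under 0.05 (edgeR) and a line at the median. The medians lie at 1.73 for anti-IL-9 against IgG, 0.37 and 0.20 for TKO against Cre in non-stripped and stripped aorta, and 0.11 in fibroblasts, and filled points appear in the anti-IL-9 comparison only.

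Single cells showed which cell classes held the subunits. After filters 44180 cells remained, 83.5% of which fell in 16 classes named from marker genes. Pairs of libraries shared 19 to 71 barcodes. Library Cre 1 stood apart in composition: of 1461 cells in 1 B cell-like cluster, 1444 came from it, as did 2123 of 2329 cells in 1 macrophage-like cluster. No cluster was neuron-like. The subunits with much RNA after anti-IL-9 differed widely in the cells: over all kept cells Scn9a had 23 UMIs, Cacna1b 37, Kcnc4 57 and Kcnq3 85, while Scn3b had 357, Cacnb3 723, Kcna2 1294 and Scn7a 10839. Among neuron genes, Th and Dbh, which make noradrenaline, had 40 and 116 UMIs, Snap25 78 and Prph 109, while Stmn2 had 2047 in 1203 cells and Uchl1 2614 in 1953 cells. The clusters were built without the subunit genes, and the levels by class are given as a description, in UMI CPM (UMIs summed over the cells of a class and scaled as CPM).

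Schwann-like cells (447) held several subunits at their highest level. Scn7a reached 2381 UMI CPM there, with a UMI in 54.1% of cells, against 2.48% of macrophage-like cells. Kcna1 reached 1506 UMI CPM, with a UMI in 69.4% of Schwann-like and 0.473% of macrophage-like cells. Median depth was 1348.5 to 1787 UMIs per cell by library in the Schwann-like class and 1355 to 3194 in the macrophage-like class, so depth did not favour the Schwann-like cells. Kcna2, which forms channels with Kcna1 at myelinated axons, had 794 UMI CPM and Kcna6 96.9 in the Schwann-like class. By library, Scn7a lay at 970 and 1222 UMI CPM in TKO and at 3920 and 1248 in Cre Schwann-like cells. Without library Cre 1, the Schwann-like level was 1084 UMI CPM for Scn7a, 694 for Kcna1, 518 for Kcna2 and 55.8 for Kcna6, and all 4 were still highest in that class. Scn7a was second highest in fibroblast-like cells, at 309 UMI CPM.

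Several calcium and potassium channel subunits had their highest level in pericyte-like or smooth muscle-like cells. In pericyte-like cells (601), Cacna1c reached 97.9 and Kcna5 52.5 UMI CPM, and Cacna1c had a UMI in 16.6% of cells, against 0.149% of T cell-like cells. In smooth muscle-like cells (2334), Cacna1c had 41.8 UMI CPM, and Cacnb2 (41.8), Kcnh2 (33.2), Scn2a (26.2) and Kcnq5 (8.87) had their highest level. Kcna5 was lower there, at 6.92 UMI CPM. The second highest class for Kcna5 was endothelial-like, at 26.2 UMI CPM.

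Lymphatic endothelial-like cells (1027) had the highest Scn3a, at 114 UMI CPM. Mesothelial-like cells led for Scn3b (62.5 UMI CPM) and the Kv4 channel Kcnd3 (48.8). Plasma cell-like cells led for 3 calcium channels, Cacna1s (114), Cacna1e (109) and Cacna1h (56.4 UMI CPM), and Cacna1s had a UMI in 28.5% of them against 0.21% of macrophage-like cells, at a median depth of 2228 to 5170 UMIs per cell by library in the plasma cell-like class. Without library Cre 1, Cacna1e had 58.8 and Cacna1h 30.2 UMI CPM there. Dendritic-like cells led for Cacnb3 at 70.2 UMI CPM, of which TKO library 1 held 149 of 223 UMIs, and without that library the level was 37.9. Fibroblast-like cells led for Cacna1a (26.3 UMI CPM), but without library Cre 1 Schwann-like cells did. B cell-like cells led for Cacna1i at 16.7 UMI CPM, with a UMI in 2.58% of cells against 0.224% of macrophage-like cells. T cell-like cells led for Kcnc1 at 14.9 UMI CPM, with a UMI in 2.17% of cells against 0.105% of macrophage-like cells. Median depth was 1219 to 1683 UMIs per cell by library in the B cell-like and 1288 to 2101 in the T cell-like class.

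**Figure D5:**
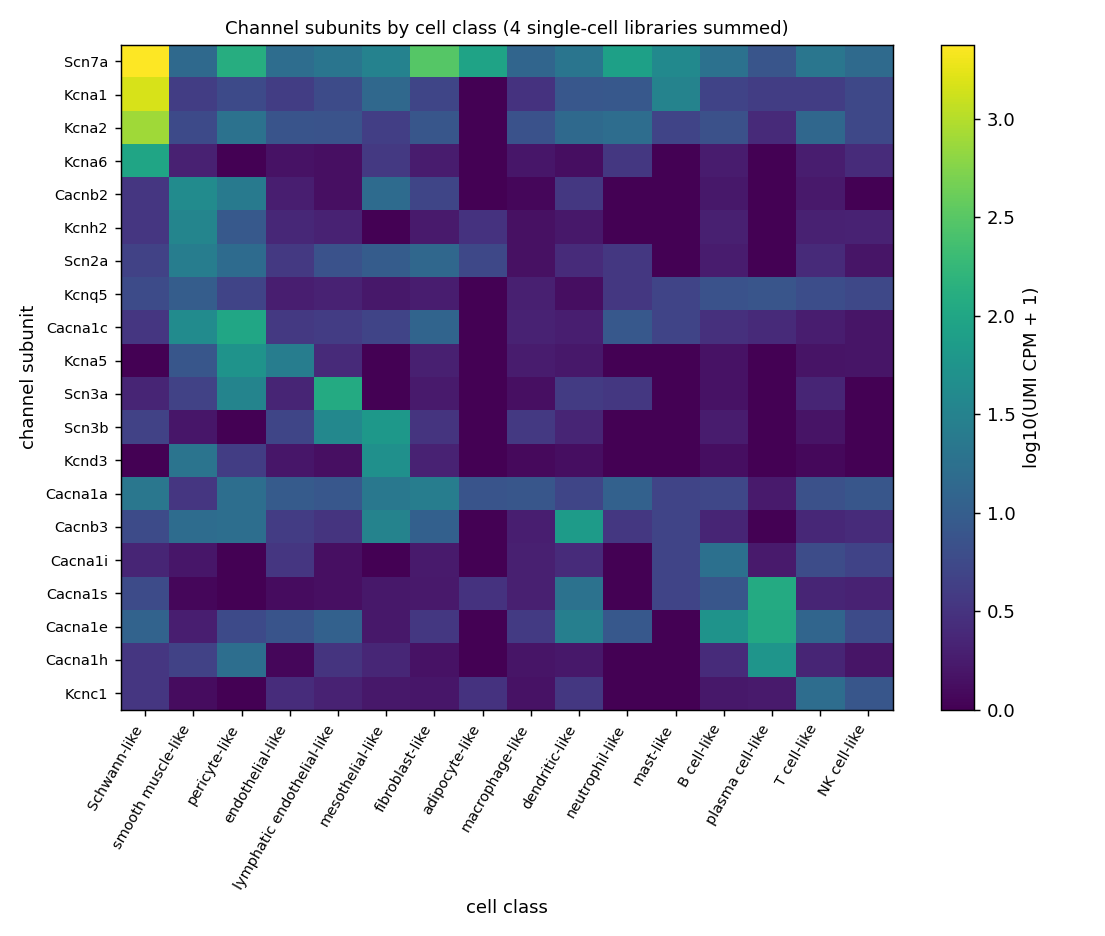
Summed level of the channel subunits named for a class, over all 4 single-cell libraries, by cell class (colour, log10 of UMI CPM plus 1). Scn7a, Kcna1 and Kcna2 stand highest in Schwann-like cells, Cacna1c and Kcna5 in pericyte-like cells, and Cacna1s and Cacna1e in plasma cell-like cells.

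Summed per library, no subunit passed between TKO and Cre single-cell libraries, either over all kept cells (42 tested, edgeR, 0.0% of 15750 genes called, 1 subunit and 311 genes at an unadjusted p under 0.05, 0 subunits by DESeq2) or in any of the 12 classes with a subunit tested (0.093% of genes called in plasma cell-like, 0.0257% in lymphatic endothelial-like, 0.0117% in B cell-like and 0.0107% in T cell-like cells, and 0.0% in the others). In NK cell-like cells, no subunit had enough counts to test. The smallest p was that of Scn7a in lymphatic endothelial-like cells (2.47, SE 0.51, edgeR adjusted p 0.568), with 34 and 9 UMIs in TKO and 6 and 3 in Cre libraries. In T cell-like cells Scn7a had 47.9 and 10.3 UMI CPM in TKO and 7.003 and 11.6 in Cre libraries, so that TKO library 1 alone stood above the rest. Without Cre library 2, 10 subunit and class pairs passed (edgeR), 6 of them Scn7a, with 0.971% to 7.50% of all genes called by class. Among these pairs, Scn7a was lower in Schwann-like cells (-1.90 on the log2 scale) and higher in the other classes (2.06 to 2.89). The fit without Cre library 2 sets the TKO libraries against Cre 1 alone, the library that stood apart. That library is assumed to vary as the TKO libraries do.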

How the data were processed

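Bulk tables hold read counts per gene, deposited by the authors and not normalized. Per the submitters' processing notes, the tools included Trimmomatic 0.36, STAR 2.5.2b and featureCounts of Subread 1.5.2, with build GRCm38. For the annotation and strand setting, the sources used here give nothing. Single-cell UMI counts were deposited as filtered matrices, and version 6.0.0 of Cell Ranger is named in them, per the file headers. The members and lists were chosen with earlier results of these data known.

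Counts were tested with edgeR 4.0.16 (R 4.3.3): quasi-likelihood fits per table, genes kept by filterByExpr with a minimum count of 10, TMM factors, and Benjamini-Hochberg adjustment over all genes tested at 0.05. DESeq2 1.42.0, other scalings, no filter and each library left out were alternatives. CPM used TMM-scaled library sizes. Levels between genes were set per kilobase of exon. In tables, 1 column of values with no matching sample was not used. Within each bulk comparison the 10 subunits with the smallest adjusted p, or the 5 with the smallest p where fewer than 5 passed, were given in full, besides those past the threshold or named by role. Some subunits that this rule names are not reported here, but all were in the tests and counts.

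Cells with at least 500 genes, 1000 UMIs and at most 20% mitochondrial UMIs were kept. The Scrublet doublet score called 0 doublets automatically, so the highest-scoring cells were removed at 0.8% per 1000 cells. Clusters (scanpy 1.11.5, 2000 variable genes, 30 components, Leiden resolution 1.0) were named from marker lists, 14 of 43 staying unnamed. Counts summed per library and class, for classes of at least 20 cells in every library, were tested as above, with each class's genes adjusted on their own. A subunit was named for the class with its highest UMI CPM, where it had at least 50 UMIs. The fitting steps were tested on simulated data. No intervals are given, and CPM at low counts carries counting error.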

Additional observations from a re-analysis of the deposited data

Results flagged for a closer look

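Kcna2, the axonal Kv1 channel, had 20.3 CPM in stripped Cre library 4, far from the other 3 stripped Cre libraries, whose nearest had 8.93 and lowest 7.18 CPM. It was the single such library among 48 subunits looked at in the group of 4, and chance sets apart about 1 in 20 groups.

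Cacna1c and Cacnb2, the alpha1 and a beta subunit of L-type channels, had log2 fold changes of opposite sign in tissue and in fibroblasts. TKO and Cre libraries did not overlap in fibroblasts or non-stripped aorta for either gene, nor in stripped aorta for Cacna1c. For Cacna1c in non-stripped aorta they nearly touched, with 6.379, 5.645 and 5.637 CPM in TKO and 6.399, 6.488 and 9.064 CPM in Cre libraries. Of all genes tested, 14.9% did not overlap higher and 10.6% lower in non-stripped aorta. The shares were 12.0% and 11.6% in stripped aorta, and 8.86% and 8.45% in fibroblasts. The log2 fold change of Cacna1c was -0.31 in non-stripped and -0.41 in stripped aorta, and 0.45 in fibroblasts. That of Cacnb2 was -1.20 in non-stripped aorta, where TKO libraries had 0.301, 0.559 and 0.349 CPM and Cre libraries 0.931, 0.691 and 1.17 CPM, and 1.09 in fibroblasts. In stripped aorta it was -0.42, and the groups overlapped, with 4.60 and 7.56 CPM in TKO and 6.48, 7.29, 9.49 and 9.31 CPM in Cre libraries. None of these values passed an adjusted p of 0.05 (edgeR), and the difference between tissue and fibroblasts was not tested.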

How the results depend on the processing

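After anti-IL-9, 29 of the 44 calls held in all 9 alternatives, 5 were lost in 1 and 10 in more, and none changed direction. Leaving out 1 IgG library gave 35 to 39 subunits higher and 1 to 2 lower, with 22.7% to 27.1% of all genes called. Scaling by library size alone gave 41 higher and 1 lower, with 28.9% of all genes called. Leaving out an anti-IL-9 library left only 1 in that group. The median log2 fold change was then 1.65 without library 1 and 1.81 without library 2. In non-stripped aorta 0 subunits passed in edgeR, but 12 were higher with no filter on low counts (3.02% of all genes called), 13 with DESeq2 (4.77%), and 0 to 8 when 1 library was left out (0.0% to 3.14%). In stripped aorta DESeq2 gave 1 higher and 1 lower (3.19%). In fibroblasts DESeq2 (2.73%), and edgeR with no filter (2.26%), each gave 1 higher and 2 lower. In the interaction, leaving out 1 library gave 0 to 1 lower (0.0% to 1.39%). In single-cell classes it gave 0 to 10 calls. Class levels with 1 library left out were chosen after seeing the data. The causes were not tested. With replicate numbers as a block, 0 subunits passed over all cells or by class, while 49 of 15750 genes did over all cells. Deviations of same-numbered libraries correlated at 0.39 over all cells, but with 2 pairs the samples share only a number. Low depth limits Scn11a, Kcnh8, Scn4a and, in stripped aorta, Kcnc1, and each group has 2 to 4 libraries.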
